A study of Mus musculus with 6 samples.

Results

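The data described here are the levels of 42 T cell and NK cell genes in RNA-seq libraries of mouse peritoneal cells, 29 of them T cell genes and 13 NK cell genes. They were chosen by symbol as genes that these lymphocytes are known for and were read as separate lists. All 42 were present in a table of 54648 gene symbols, none was at 0 in every library, and all 42 passed the filter on low counts together with 15608 genes in all. The libraries came from C57BL/6 mice, 6 to 8 weeks old and on standard chow, of which 3 were WT and 3 were labelled FOXO3 KO, a knockout of the transcription factor FOXO3. According to the study's methods all the mice, males and females alike, received thioglycollate into the peritoneum to recruit macrophages, and the cells were harvested days later and pelleted, with no sort for macrophages or against lymphocytes described. Thus the samples, labelled as macrophages, were bulk RNA of whatever cells the lavage held. The study describes these cells as mostly macrophages. It reports that they included few other immune cells, which it found insignificant after sequencing and analysis. The labels do not tie each library to a separate animal, so the p-values below measure the spread between these libraries.

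T cells recognize antigen through a receptor of alpha and beta chains, or of gamma and delta chains, which signals through the CD3 chains, the kinases LCK and ZAP-70 and the adaptor LAT. The coreceptors CD4 and CD8 divide helper from cytotoxic T cells, and factors such as TCF-1 (Tcf7), LEF-1, BCL11B and GATA3 establish and keep the lineage. NK cells are innate lymphocytes without such a receptor, which weigh signals from activating and inhibitory surface receptors and kill through perforin and granzymes under the factors EOMES and T-bet (Tbx21). Both are minor populations of the peritoneal cavity beside macrophages and B cells.

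Before the gene levels, a few sequences show what the counts of these genes can and cannot tell apart. The beta chain has a pair of constant-region genes, Trbc1 at chr6:41538218-41539881 and Trbc2 at chr6:41546730-41548352 (GRCm38, plus strand, GENCODE M21), and a T cell uses either one. Over the 500 coding bases compared, the transcripts Trbc1-201 and Trbc2-201 were 96.2% identical, with 19 differences and an identical run of 259 bases, longer than the 76-base reads. The 76-base windows of the longest transcripts were searched for in the transcripts of other genes, on either strand. Of these windows, 34.9% of those of Trbc1 and 37.4% of those of Trbc2 occurred in the other gene, so their separate levels are uncertain. Below are coding bases 378 to 497 of both, which hold 18 of the differences, in capitals.

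Trbc1: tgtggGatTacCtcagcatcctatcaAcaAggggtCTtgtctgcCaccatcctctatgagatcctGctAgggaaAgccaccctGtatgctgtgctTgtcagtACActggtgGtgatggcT

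Trbc2: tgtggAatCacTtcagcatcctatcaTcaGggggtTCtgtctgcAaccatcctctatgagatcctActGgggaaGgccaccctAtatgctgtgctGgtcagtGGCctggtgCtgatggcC

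Promoters were shown because the mice differ in a DNA-binding factor. RefSeq promoters (GRCm38.p6, 250 bases before the start, both strands searched) were matched for 29 of the 42 genes, 18 T cell and 11 NK cell genes, with 41 promoters in all. The FoxO motif GTAAACA was in 0 of the 41, beside 3.17% of all 32851 promoters. The ETS core AGGAAG stood in promoters of 12 of 18 T cell genes and 5 of 11 NK cell genes, and in 29.5% of all promoters, and the RUNX core TGTGGT in those of 3 of 18 T cell genes (Lck, Txk and Zap70) and 8 of 11 NK cell genes, and in 14.0% of all promoters. Genes may have several promoters, so a share of genes is not on the same footing as a share of promoters. Counted by promoter, 19 of the 41 held the ETS core and 12 of the 41 held the RUNX core. These are letters found, not sites bound, and a factor may bind other letters. As examples, the promoters of Cd3d (chr9:44981536-44981785, plus strand) and Cd3e (chr9:45009612-45009861, minus strand), neighbors that encode CD3 chains, carry the ETS core or its reverse complement CTTCCT in capitals, and those of the NK receptor gene Ncr1 (chr7:4337465-4337714, plus strand) and of granzyme B, Gzmb (chr14:56262335-56262584, minus strand), carry the RUNX core or its reverse complement ACCACA in capitals, each read on the gene's own strand.

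Cd3d: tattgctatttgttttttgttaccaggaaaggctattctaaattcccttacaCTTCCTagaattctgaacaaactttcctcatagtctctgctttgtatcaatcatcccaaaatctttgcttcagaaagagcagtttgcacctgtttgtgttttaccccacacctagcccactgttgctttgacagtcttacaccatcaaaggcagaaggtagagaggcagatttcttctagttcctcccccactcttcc

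Cd3e: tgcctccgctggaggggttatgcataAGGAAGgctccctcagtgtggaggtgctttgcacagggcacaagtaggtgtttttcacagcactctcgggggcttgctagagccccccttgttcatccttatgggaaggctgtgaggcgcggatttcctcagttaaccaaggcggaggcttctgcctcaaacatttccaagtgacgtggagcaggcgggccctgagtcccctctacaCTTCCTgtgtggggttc

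Ncr1: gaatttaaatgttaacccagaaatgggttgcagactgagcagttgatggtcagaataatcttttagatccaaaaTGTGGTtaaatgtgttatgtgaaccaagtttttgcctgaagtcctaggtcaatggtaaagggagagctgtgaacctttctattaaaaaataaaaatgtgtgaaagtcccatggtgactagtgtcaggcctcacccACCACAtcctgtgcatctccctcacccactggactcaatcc

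Gzmb: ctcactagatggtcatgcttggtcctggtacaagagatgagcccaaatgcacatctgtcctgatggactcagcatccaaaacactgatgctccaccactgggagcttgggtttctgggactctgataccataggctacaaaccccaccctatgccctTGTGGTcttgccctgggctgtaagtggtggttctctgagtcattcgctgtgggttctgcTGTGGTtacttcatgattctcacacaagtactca

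Library totals ranged from 28083572 to 36424331 estimated counts. Levels below are CPM, the counts of a gene in every 1000000 counts of the library after TMM scaling, by factors that ranged from 0.936 to 1.10. Foxo3 was first checked against the labels. It stood at 117, 107 and 73.1 CPM in WT 1, 2 and 3, at 4.71 and 4.29 CPM in FOXO3 KO 1 and 3, and at 104 CPM in the library labelled FOXO3 KO 2, which was thus at the WT level and goes against its label. Its log2 fold change was -1.40 (SE 1.22, adjusted p = 0.859, quasi-likelihood test of edgeR, Benjamini-Hochberg adjustment), and -4.46 (SE 0.29, adjusted p = 0.105 by the same edgeR test) without that library. Xist, transcribed from the inactive X chromosome of females, was at 871 CPM in WT 3 and 1130 CPM in FOXO3 KO 3 and under 1 CPM in the other 4 libraries. WT 3 also held Y-linked transcripts, with Ddx3y at 23.7 CPM, against 98.7 to 123 CPM in the 4 libraries of low Xist and 2.37 CPM in FOXO3 KO 3. WT 3 stood apart over all genes as well, with correlations to the other libraries of 0.917 to 0.951, where the other 5 correlated with each other at 0.980 to 0.990. Because 1 WT and 1 FOXO3 KO library had high Xist, values are given below also within the libraries of low and of high Xist, and without WT 3 or the library labelled FOXO3 KO 2. Macrophage markers were abundant in each library, as 12 of them summed to 15110 to 19860 CPM. Lyz2 alone gave 7750 to 11400 CPM of these sums. In WT 3, Cd68 was at 525 CPM, against 990 to 1470 CPM elsewhere, and 8 B cell markers summed to 3515 CPM. Of the 12 macrophage markers, 8 were lowest and 4 highest in WT 3. The share of macrophages in each library was not tested.

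Most T cell genes stood highest in WT 3 and next highest in FOXO3 KO 3, whereas most NK cell genes did not. The sum over all 29 T cell genes did not show this, since Il7r made up most of it in 5 of 6 libraries. It was 625.4 CPM in WT 1, 793.5 CPM in WT 2 and 636.3 CPM in WT 3, and 640.8, 612.1 and 516.4 CPM for the FOXO3 KO libraries, so it was highest in WT 2 and lowest in FOXO3 KO 3. Summed over 27 T cell genes, leaving out Il7r and Cd28, which were set apart after their values were seen, the level was 96.0 CPM in WT 1, 90.4 CPM in WT 2 and 399.7 CPM in WT 3, against 70.4, 86.8 and 150.6 CPM for the FOXO3 KO libraries 1, 2 and 3. Values below follow this order of libraries. The 13 NK cell genes summed to 64.62, 100.4 and 78.17 CPM in WT, against 84.9, 87.21 and 93.96 CPM in FOXO3 KO. Both lists were a small part of the RNA, as the 27 T cell genes took 0.00683% to 0.0438% of all counts and the NK cell genes 0.00641% to 0.00968%. The ratio of the sum over the 27 T cell genes to the NK cell sum was 1.49, 0.901 and 5.11 in WT and 0.829, 0.995 and 1.60 in FOXO3 KO. It was thus highest in WT 3 and FOXO3 KO 3. This order rests on leaving out Il7r and Cd28, as the sum over all 29 T cell genes was lowest in FOXO3 KO 3. In bulk RNA fewer cells of a type and less RNA per cell cannot be told apart.

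**Figure D1:**
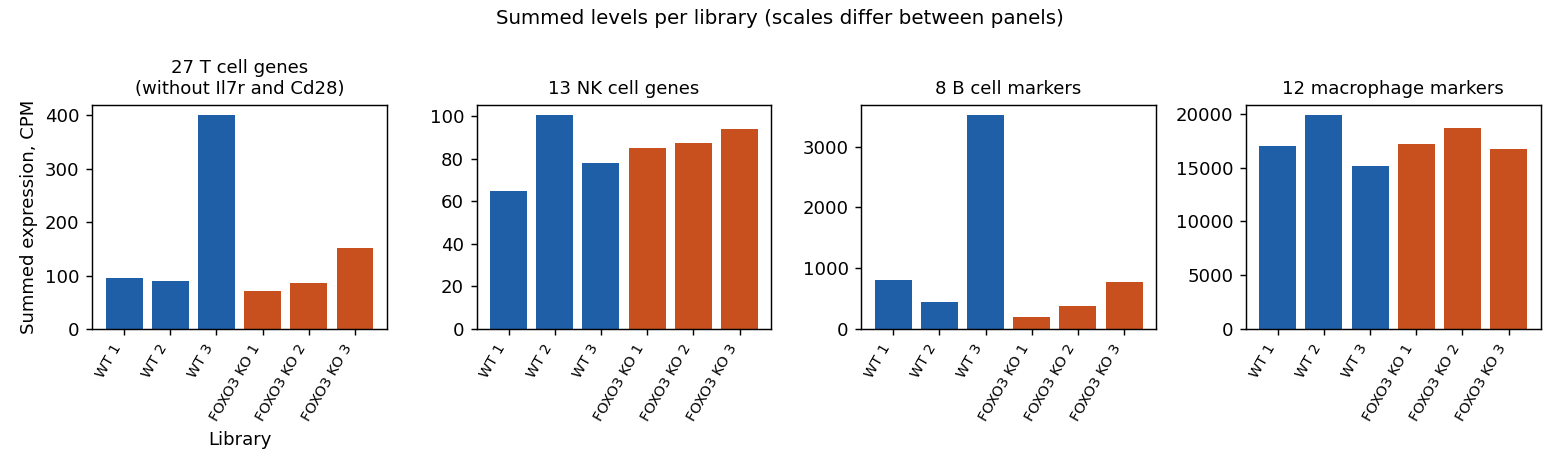
Summed expression (CPM, linear axes from 0, scales differ between panels) of 27 T cell genes, 13 NK cell genes, 8 B cell markers and 12 macrophage markers, 1 bar per library, WT in blue and FOXO3 KO in orange. The T cell sum reached 399.7 CPM in WT 3 and 150.6 CPM in FOXO3 KO 3 and was at most 96.0 CPM elsewhere, and the NK cell sum stayed between 64.62 and 100.4 CPM.

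Between the groups as labelled, no member passed the test for a difference. None of the 42 passed an FDR of 0.05 in edgeR's quasi-likelihood test, and neither did any of the 15608 genes tested (0% called). In counts simulated for 3 against 3 libraries, this test recovered 13 of 98 genes changed 2-fold and 79 of 98 changed 8-fold. The lack of calls thus does not show that levels were equal. The simulated counts held no library that stood apart as WT 3 did, and none that went against its label. The changed genes were drawn from all genes tested, so the recovered shares may not hold for these libraries and members. At an unadjusted p under 0.05 there were 0 members in either direction, where 1.65% of all genes were lower and 4.04% higher in FOXO3 KO. DESeq2 called 0 members as well, where it called 0.826% of all genes in either direction and 0.0384% as lower in FOXO3 KO. At its unadjusted p under 0.05, 2 of 29 T cell genes and 3.84% of all genes were lower. For no member did the groups of 3 stand apart, against 5.36% of all genes apart with FOXO3 KO lower and 7% apart with it higher. The fold changes of the T cell genes still lay mostly on one side, with 27 of 29 below 0, where 51.2% of all genes were below 0. Their median log2 fold change was -0.89, beside -0.01 for all genes, and that of the NK cell genes was 0.16, with 6 of 13 below 0. By role, the T cell medians ran from -1.20 for the coreceptors to -0.71 for the kinases and adaptors, and the NK cell medians were 0.20 for the receptors, 0.24 for the killing machinery and -0.31 for the pair of transcription factors.

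The side on which the T cell fold changes lay turned with WT 3. Without WT 3, their median was 0.18 and 8 of 29 were below 0, where 49.3% of all genes were. Leaving out the library labelled FOXO3 KO 2 gave a median of -0.80 with 27 below 0, and leaving out both libraries gave 0.25 with 8 below 0. In the fits without WT 3, FOXO3 KO 3 was the only library of high Xist, so group and Xist class were not balanced. FOXO3 KO 3 was the second highest of the 6 libraries for 23 of 29 T cell genes, and its part in the turn was not tested. The NK cell median was -0.04 without WT 3, -0.05 without the library labelled FOXO3 KO 2 and -0.02 without both. WT 3 was the highest of the 6 libraries for 27 of 29 T cell genes, beside 37.2% of all genes, and for 3 of 13 NK cell genes (Il2rb, Nkg7 and Tbx21). It was the lowest for 1 T cell gene, Il7r, and for 6 NK cell genes (Ncr1, Klrb1c, Klra8, Gzma, Gzmb and Prf1), beside 37.5% of all genes. For 23 of 29 T cell genes both WT 3 and FOXO3 KO 3 were above the other 4 libraries, which held for 16.2% of all genes and for 1 NK cell gene, Il2rb.

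Within the libraries of high Xist, 28 of 29 T cell genes, all but Il7r, were lower in FOXO3 KO 3 than in WT 3, as were 4 of 13 NK cell genes and 49.5% of all genes. This sets 1 library against 1 and has no replicate check. The pair also differed in Y-linked transcripts, with Ddx3y at 23.7 CPM in WT 3 and 2.37 CPM in FOXO3 KO 3. Within the libraries of low Xist, FOXO3 KO 1 and the library labelled FOXO3 KO 2 were both below WT 1 and 2 for 11 of 29 T cell genes, 0 of 13 NK cell genes and 18.4% of all genes. Both were above for 1 of 29 T cell genes, Trdc, and for 17.1% of all genes. The mean of the FOXO3 KO pair was the lower one for 25 of 29 T cell genes, 6 of 13 NK cell genes and 52.5% of all genes. With the Xist class as a covariate in edgeR the T cell median was -0.62, and 6 of 29 T cell genes were lower at an unadjusted p under 0.05, where 4.85% of all genes were, with 0 past the FDR. That fit holds WT 3 too, and its part in that count was not tested.

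**Figure D2:**
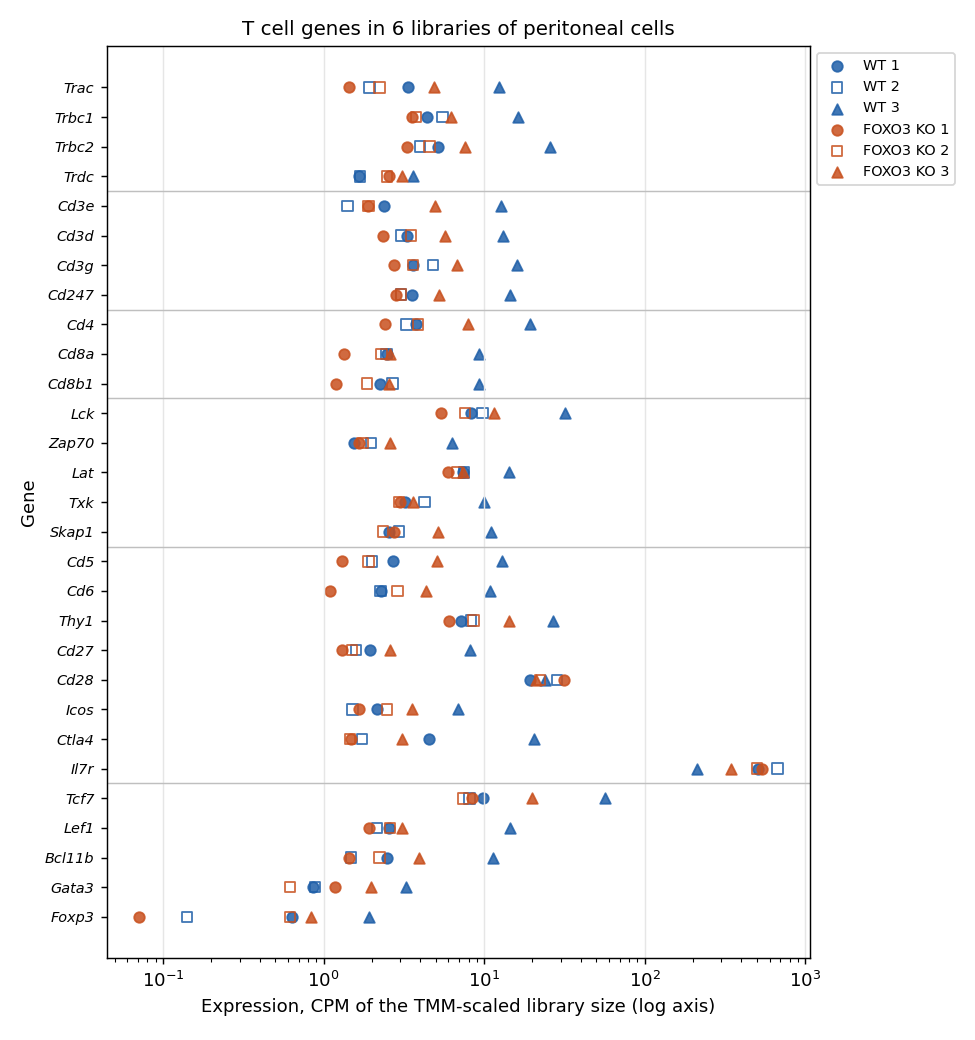
CPM (log axis) of the 29 T cell genes, 1 row per gene and 1 point per library, WT in blue and FOXO3 KO in orange, with circles, open squares and triangles for replicates 1, 2 and 3. The blue triangle of WT 3 is the rightmost point for 27 of 29 genes and the leftmost for Il7r.

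Among the receptor chains, Trac, the alpha constant region at chr14:54220521-54224206, was at 3.38, 1.94 and 12.3 CPM in WT against 1.45, 2.23 and 4.89 CPM in FOXO3 KO. Trbc2, a beta constant region, was at 5.15, 3.99 and 25.6 CPM in WT against 3.30, 4.56 and 7.59 CPM in FOXO3 KO. Both were highest in WT 3 and the groups overlapped. The log2 fold change was -1.04 for Trac (SE 0.79) and -1.17 for Trbc2 (SE 0.77), with adjusted p of 0.852 and 0.843 in edgeR's quasi-likelihood test. Trbc1, the other beta constant region, was at 4.38, 5.50 and 16.2 CPM in WT against 3.54, 3.76 and 6.24 CPM in FOXO3 KO. Trdc, the delta constant region within the same stretch of chromosome 14 as Trac, moved over a narrower range, with 1.66, 1.69 and 3.63 CPM in WT against 2.55, 2.48 and 3.06 CPM in FOXO3 KO. WT 3 exceeded the mean of WT 1 and 2 by 2.17-fold for Trdc, by 4.62-fold for Trac and by 5.61-fold for Trbc2.

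The CD3 chains, which carry the receptor's signal, followed the alpha and beta chains. Cd3e was at 2.38, 1.41 and 12.7 CPM in WT against 1.88, 1.90 and 4.98 CPM in FOXO3 KO, and Cd3g at 3.63, 4.80 and 16 CPM in WT against 2.73, 3.61 and 6.81 CPM in FOXO3 KO. For both, WT 3 and FOXO3 KO 3 were the highest libraries. The log2 fold changes were -0.92 (SE 0.89, adjusted p = 0.866) for Cd3e and -0.89 (SE 0.65, adjusted p = 0.852) for Cd3g in edgeR's test, and 0.63 and 0.07 without WT 3. Cd3d, next to both on chromosome 9, ranged from 2.34 CPM in FOXO3 KO 1 to 13.2 CPM in WT 3. Cd247, the zeta chain, ranged from 2.83 to 14.4 CPM. However, 82.1% of the 76-base windows of its longest transcript also match transcripts annotated to Gm16565 or Pou2f1, on the same or the opposite strand. Its level is thus uncertain.

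Cd4, the coreceptor of helper T cells, was at 3.74, 3.28 and 19.3 CPM in WT against 2.41, 3.87 and 7.95 CPM in FOXO3 KO, with a log2 fold change of -0.89 (SE 0.81, adjusted p = 0.863, edgeR). Cd8a, a coreceptor chain of cytotoxic T cells, was at 2.49, 2.47 and 9.31 CPM in WT against 1.35, 2.30 and 2.58 CPM in FOXO3 KO, with a log2 fold change of -1.20 (SE 0.61, adjusted p = 0.839, edgeR). Cd4 was higher in FOXO3 KO 3 than in every library but WT 3, whereas Cd8a in FOXO3 KO 3 was close to WT 1 and 2. Cd8b1, the partner chain of Cd8a, was at 2.24, 2.68 and 9.28 CPM in WT against 1.20, 1.86 and 2.55 CPM in FOXO3 KO. Without WT 3 the log2 fold change was -0.25 for Cd8a and -0.38 for Cd8b1, on the same side as with all libraries, and 0.45 for Cd4.

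Lck, the kinase that starts receptor signaling, was at 8.23, 9.74 and 32.1 CPM in WT against 5.42, 7.63 and 11.5 CPM in FOXO3 KO. Its log2 fold change was -1.03 (SE 0.59, adjusted p = 0.843, edgeR). Zap70, the kinase recruited to the CD3 chains, ranged from 1.55 CPM in WT 1 to 6.32 CPM in WT 3. Lat, the membrane adaptor that ZAP-70 phosphorylates, varied less, from 5.95 CPM in FOXO3 KO 1 to 14.2 CPM in WT 3, which was 1.91 times the mean of WT 1 and 2. Txk, a TEC family kinase, ranged from 2.96 to 9.98 CPM and Skap1, an adaptor of integrin adhesion, from 2.34 to 11 CPM, both highest in WT 3.

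The surface receptors divided into those that followed the receptor chains and a pair that did not. Cd5, an inhibitory receptor also carried by B-1 cells of the peritoneum, was at 2.69, 2.01 and 13 CPM in WT against 1.31, 1.90 and 5.07 CPM in FOXO3 KO, with a log2 fold change of -1.10 (SE 0.86, adjusted p = 0.855, edgeR). Thy1, a surface glycoprotein of T cells, was at 7.15, 8.29 and 26.8 CPM in WT against 6.06, 8.57 and 14.2 CPM in FOXO3 KO, with a log2 fold change of -0.55 (SE 0.59, adjusted p = 0.872, edgeR). Cd6 (1.10 to 10.9 CPM), the costimulatory receptor gene Cd27 (1.31 to 8.16 CPM) and Icos (1.52 to 6.91 CPM) were likewise highest in WT 3. Ctla4, the inhibitory receptor that competes with CD28, had the smallest p of the T cell genes. It was at 4.54, 1.73 and 20.4 CPM in WT against 1.49, 1.46 and 3.09 CPM in FOXO3 KO, so that FOXO3 KO 3 lay between WT 1 and 2 and the groups overlapped. Its log2 fold change was -2.14 (SE 0.92, unadjusted p = 0.0563, adjusted p = 0.839, edgeR) and -0.63 without WT 3.

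Il7r and Cd28 went another way. Il7r, the receptor for the survival cytokine IL-7, was at 510, 675 and 213 CPM in WT against 539, 503 and 345 CPM in FOXO3 KO, so the libraries highest in the other T cell genes were its lowest. The summed macrophage markers were lowest in the same pair, at 15110 CPM in WT 3 and 16710 CPM in FOXO3 KO 3. Of the 12 markers, 8 were lowest and 4 highest in WT 3. Which cells the Il7r counts came from was not tested. Il7r took 81.6%, 85% and 33.4% of the counts of the 29 T cell genes in WT and 84.1%, 82.2% and 66.8% in FOXO3 KO. Per kb of transcript, Il7r averaged 131 CPM per kb, against 12.1 CPM per kb for Trbc2, the next highest member, and 0.184 CPM per kb for Foxp3, the lowest. Its log2 fold change was -0.01 (SE 0.42, adjusted p = 0.996, edgeR). Cd28, the costimulatory receptor, was at 19.3, 28.4 and 24.0 CPM in WT against 31.3, 22.3 and 21 CPM in FOXO3 KO, with WT 3 inside the range of the other libraries. Over the 6 libraries the correlation with the mean log2(CPM + 0.5) of Trac, Cd3e, Cd3d, Cd3g and Lck, given as a description, was -0.95 for Il7r and -0.30 for Cd28, 0.71 for Trdc and 0.89 or more for the other 26 T cell genes. The genes in that mean are among the 26 and all points share their libraries.

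Of the transcription factors, Tcf7 was the most abundant per kb, at 9.86, 8.12 and 56.5 CPM in WT against 8.43, 7.37 and 20 CPM in FOXO3 KO. Its log2 fold change was -1.06 (SE 0.84, adjusted p = 0.855, edgeR) and 0.42 without WT 3. Gata3, the factor of type 2 helper cells and of innate lymphoid cells too, was at 0.859, 0.882 and 3.24 CPM in WT against 1.17, 0.620 and 1.98 CPM in FOXO3 KO, with a log2 fold change of -0.40 (SE 0.68, adjusted p = 0.907, edgeR). Lef1 ranged from 1.91 to 14.6 CPM and Bcl11b from 1.45 to 11.4 CPM, both highest in WT 3. Of the 76-base windows, 33.3% of those of Lef1 and 10.9% of those of Foxp3 occur in transcripts of other genes, so both levels are uncertain. Foxp3, the factor of regulatory T cells, was the rarest member, at 0.637, 0.141 and 1.93 CPM in WT against 0.0709, 0.620 and 0.839 CPM in FOXO3 KO, so its level rests on few counts.

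Ratios of counts between genes of one library do not depend on the library's size. Cd4 made up 60%, 57.1% and 67.5% of the Cd4 and Cd8a counts in WT and 64.2%, 62.7% and 75.5% in FOXO3 KO. Means were 61.5% ± 5.39 (SD, n = 3) and 67.5% ± 7 (SD, n = 3), and the groups overlapped (exact permutation test, two-sided, p = 0.4, adjusted p = 0.533 over 4 such ratios). Trdc made up 33.0%, 46.6% and 22.8% of the Trdc and Trac counts in WT and 63.7%, 52.7% and 38.5% in FOXO3 KO. The means were 34.1% ± 11.9 (SD, n = 3) and 51.6% ± 12.6 (SD, n = 3), with FOXO3 KO 3 inside the WT range (exact permutation test, two-sided, p = 0.2, adjusted p = 0.4). Counts were not scaled to length, and the longest transcript has 3865 bases for Trdc and 935 for Trac. Per kb of transcript, Trdc averaged 0.65 CPM and Trac 4.67 CPM, so the shares of counts are not shares of transcripts or cells. Trbc2 as a share of both beta constant regions gave p = 1 and Cd8b1 as a share of both Cd8 chains p = 0.2 in the same exact permutation test. With 3 libraries against 3 the smallest p the test allows is 0.1.

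**Figure D3:**
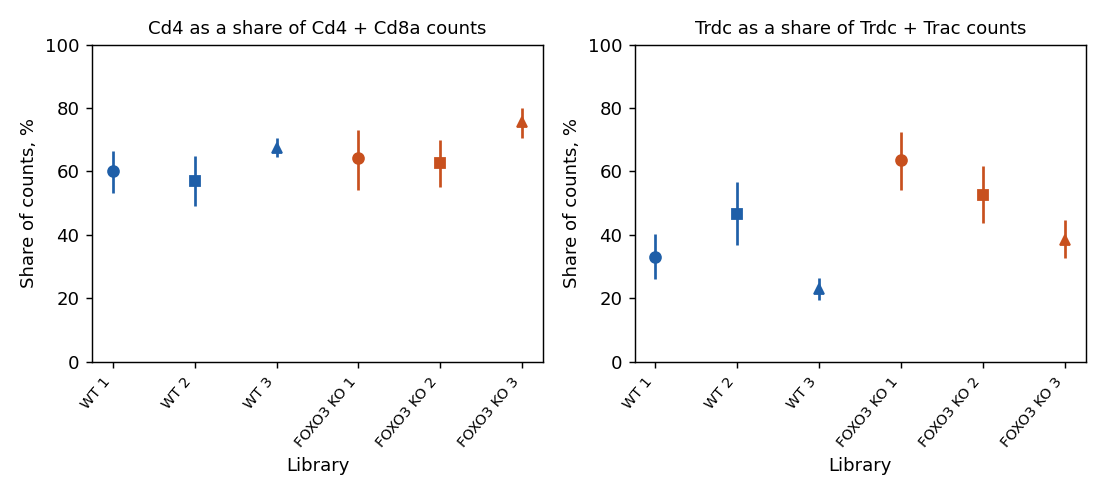
Cd4 as a share of Cd4 and Cd8a counts (left) and Trdc as a share of Trdc and Trac counts (right), in %, 1 point per library with its exact 95% Clopper-Pearson interval, which covers counting error only. The Trdc share was lowest in WT 3, at 22.8% (interval 19.4% to 26.5%), and highest in FOXO3 KO 1, at 63.7% (interval 54.1% to 72.6%). Counts are not scaled to transcript length.

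NK cell genes did not share the high level of the T cell genes in WT 3. Over the list, WT 3 stood at a median of 0.692 times the mean of WT 1 and 2, and FOXO3 KO 3 at 1.07 times that of the other FOXO3 KO libraries, against 4.01 and 1.93 times for the T cell list. Ncr1, which encodes the activating receptor NKp46, was at 3.21, 5.75 and 1.76 CPM in WT against 4.07, 3.65 and 2.85 CPM in FOXO3 KO, with a log2 fold change of -0.02 (SE 0.45, adjusted p = 0.994, edgeR). Klrb1c, the NK1.1 antigen, was at 5.01, 7.69 and 3.38 CPM in WT against 7.05, 5.29 and 6.06 CPM in FOXO3 KO, with a log2 fold change of 0.20 (SE 0.33, adjusted p = 0.906, edgeR). Both were lowest in WT 3, the library highest in T cell genes. Klra8, the activating receptor Ly49H, was also lowest there, at 1.54 CPM against 3.72 to 8.65 CPM elsewhere. Of the 76-base windows, 14.9% of those of Klrb1c and 19.3% of those of Klra8 occur in other genes, mainly of the same families, so these levels are uncertain.

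Klrk1, which encodes NKG2D and is also used by cytotoxic T cells, was the NK cell gene with the smallest p. It was at 12.5, 15.8 and 13.9 CPM in WT against 16.3, 14.2 and 20.4 CPM in FOXO3 KO, with a log2 fold change of 0.27 (SE 0.18, unadjusted p = 0.178, adjusted p = 0.843, edgeR). Klrd1, which encodes CD94, the partner chain of the NKG2 receptors, was at 7.09, 9.56 and 9.34 CPM in WT against 9.99, 9.12 and 11.7 CPM in FOXO3 KO, with a log2 fold change of 0.24 (SE 0.19, adjusted p = 0.854, edgeR). The groups overlapped for both. Klre1, a receptor of the same chromosome 6 cluster, ranged from 2.12 to 4.80 CPM. Il2rb, the IL-2 and IL-15 receptor chain that NK cells share with T cells, was the NK list member closest to the T cell genes, at 13.3, 16.3 and 26.1 CPM in WT against 14.3, 19.0 and 20.2 CPM in FOXO3 KO, with a correlation of 0.86 to the T cell mean above.

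**Figure D4:**
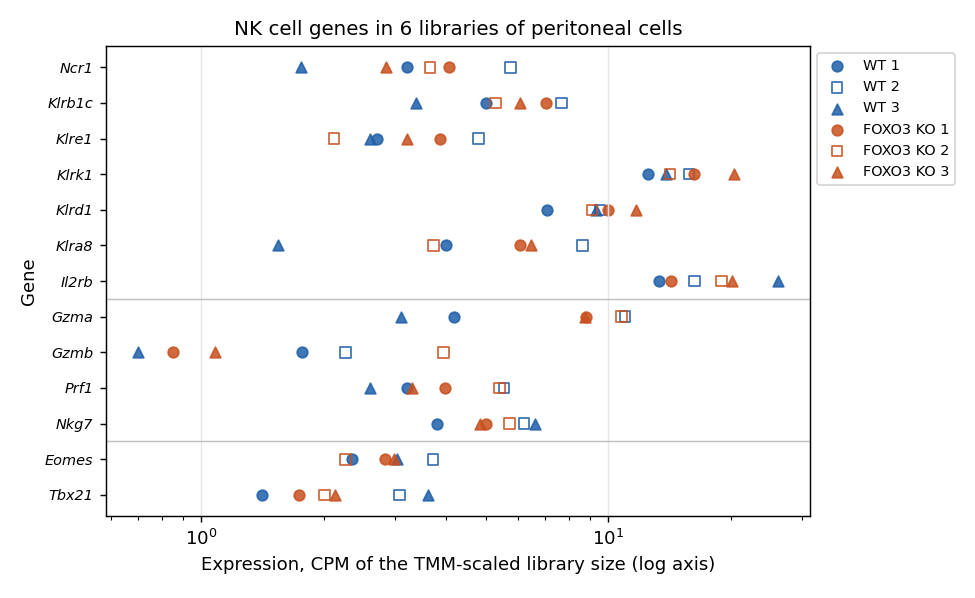
CPM (log axis) of the 13 NK cell genes, drawn as for the T cell genes. WT 3 (blue triangle) is the leftmost point for 6 genes, among them Ncr1 and Klrb1c, and the rightmost for Il2rb, Nkg7 and Tbx21.

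Of the killing machinery, Gzma, a granzyme, was at 4.18, 11 and 3.10 CPM in WT against 8.82, 10.8 and 8.78 CPM in FOXO3 KO. WT 1 and 3 were low and WT 2 was above all FOXO3 KO libraries, and the log2 fold change was 0.64 (SE 0.48, adjusted p = 0.852, edgeR). Gzmb was at 1.77, 2.26 and 0.699 CPM in WT against 0.850, 3.94 and 1.08 CPM in FOXO3 KO, with a log2 fold change of 0.31 (SE 0.72, adjusted p = 0.928, edgeR). Its highest library was the one labelled FOXO3 KO 2, and without that library the fold change was -0.70. Prf1, perforin, was at 3.21, 5.54 and 2.6 CPM in WT against 3.97, 5.40 and 3.30 CPM in FOXO3 KO, with a log2 fold change of 0.16 (SE 0.36, adjusted p = 0.927, edgeR). Nkg7, a protein of cytotoxic granules, was at 3.79, 6.21 and 6.60 CPM in WT against 5, 5.73 and 4.83 CPM in FOXO3 KO, with a log2 fold change of -0.09 (SE 0.26, adjusted p = 0.943, edgeR). Of the factors, Tbx21, shared with type 1 helper T cells, was at 1.41, 3.07 and 3.61 CPM in WT against 1.74, 2.01 and 2.13 CPM in FOXO3 KO, with a log2 fold change of -0.46 (SE 0.38, adjusted p = 0.856, edgeR). Eomes ranged from 2.26 to 3.71 CPM with WT 3 inside that range.

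**Figure D5:**
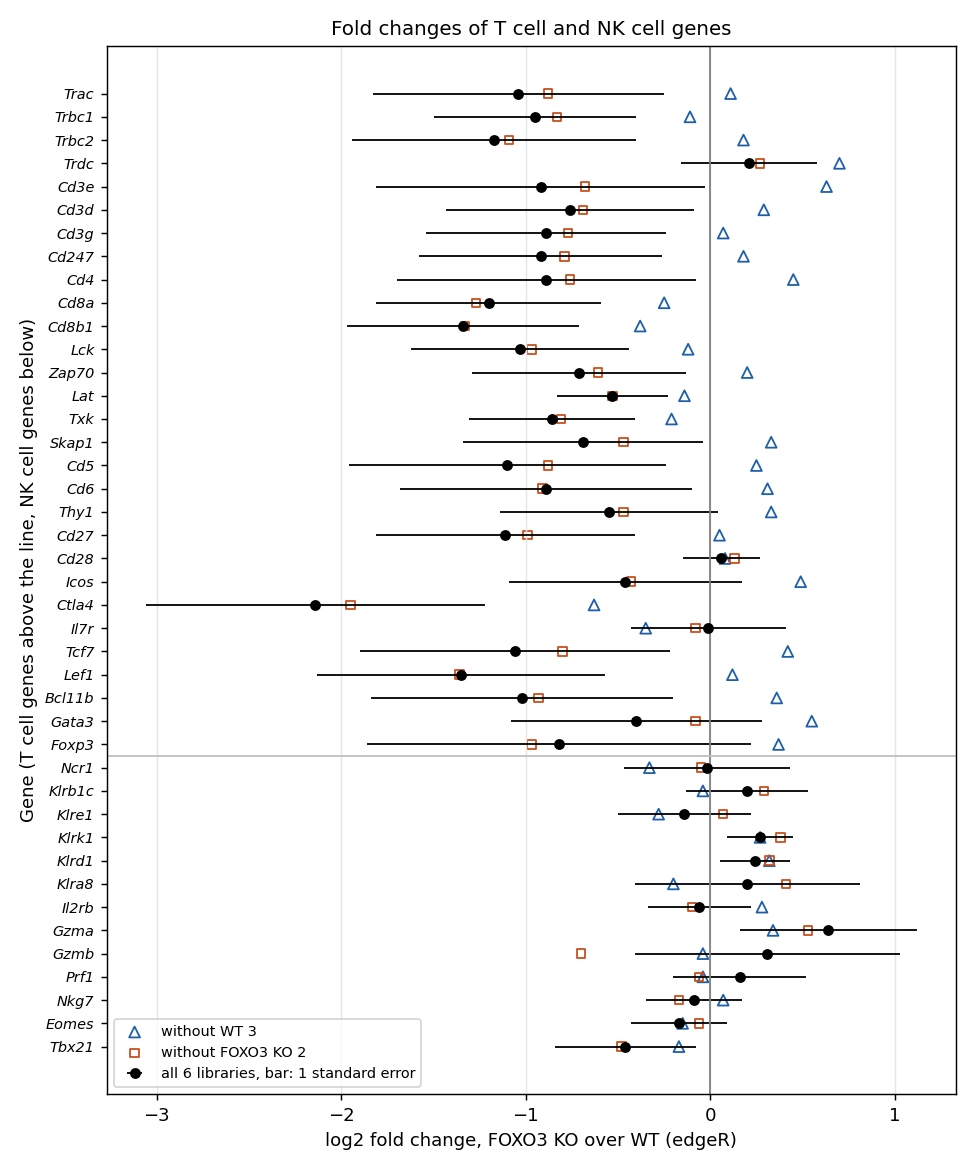
Log2 fold changes of FOXO3 KO over WT for the 42 genes, with all 6 libraries (black, bar of 1 standard error), without WT 3 (blue triangle) and without the library labelled FOXO3 KO 2 (orange square). For the T cell genes the median was -0.89, 0.18 and -0.80 in these fits, and for the NK cell genes 0.16, -0.04 and -0.05.

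Other genes of the same cells were read from further lists. Of 26 other T cell genes, 25 were tested, 22 were below 0 and 3 above, none passed an unadjusted p of 0.05, and the median was -1.01, or 0.19 without WT 3. Of 11 gamma-delta and innate-like T cell genes, 10 were tested, 3 were below 0 and 7 above, with a median of 0.38, or 0.77 without WT 3, and none passed an unadjusted p of 0.05. The smallest p there was that of Slamf6, a receptor that B cells carry too (unadjusted p = 0.0682, log2 fold change -1.83). The gamma constant regions Tcrg-C1, Tcrg-C2 and Tcrg-C4 had log2 fold changes of 0.53, -0.22 and 0.28. Of 24 other NK cell genes, 22 were tested, 6 were below 0 and 16 above, with a median of 0.17, and 3 were higher at an unadjusted p under 0.05 (Klrb1b, Il18rap and Serpinb9b), beside 4.04% of all genes. Klrb1b, a receptor of the NK1.1 family, was at 4.74, 3.88 and 3.94 CPM in WT against 8.22, 6.13 and 11.7 CPM in FOXO3 KO. The groups thus did not overlap, as for 7% of all genes in this direction. Its log2 fold change of 1.05 (SE 0.28) did not pass the FDR (adjusted p = 0.714, edgeR). The study lists Klrb1b in its signature, among the genes that it reports as higher in FOXO3-deficient macrophages. The fit here held the library labelled FOXO3 KO 2, with Foxo3 at the WT level. A fold change of Klrb1b without that library is not given.

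The summed B cell and mast cell markers were highest in WT 3, as the sum over the 27 T cell genes was, and the sums for the other cells were not. The 8 B cell markers summed to 807.9, 439.5 and 3515 CPM in WT against 197.6, 384.4 and 770.1 CPM in FOXO3 KO, with all 8 fold changes below 0, a median of -1.87 and, without WT 3, -0.47. The sum over the 27 T cell genes was the smaller one throughout, with B cell to T cell ratios of 8.42, 4.86 and 8.79 in WT and 2.81, 4.43 and 5.11 in FOXO3 KO. The 8 mast cell markers summed to 229.6, 130.9 and 831 CPM in WT against 214.3, 107 and 305.1 CPM in FOXO3 KO. The sums of the 7 dendritic cell markers (38.4 to 86.0 CPM) and of the 6 ILC2 markers (56.0 to 75.8 CPM, 2 of 6 tested) were highest in FOXO3 KO 3. No single ILC2 marker was highest there. Il1rl1 was at 45.7 CPM in WT 3 against 44.5 CPM in FOXO3 KO 3, and Il17rb was also highest in WT 3. Rora was highest in the library labelled FOXO3 KO 2, at 41.8 CPM, and Il13, Il5 and Areg were near 0. The 8 neutrophil markers summed to 465.3 and 385.3 CPM in FOXO3 KO 1 and 3 and to 125.5 to 193.8 CPM elsewhere. That difference lay mostly in S100a9 (164 and 117 CPM), S100a8 (83.2 and 59.8 CPM) and Cxcr2 (18.7 and 14.4 CPM). Csf3r was highest in the same pair too but by less, at 159 and 164 CPM against 116 to 139 CPM elsewhere. Mmp8 and Retnlg followed it only in part. Both were highest in FOXO3 KO 1, at 18.4 and 21.7 CPM, but lower in FOXO3 KO 3 than in WT 2. Ly6g and Camp were at 0.12 CPM or less. The 7 fibroblast and mesothelial markers summed to 354.5 CPM in the library labelled FOXO3 KO 2 and 30.4 to 107.5 CPM elsewhere. No defining marker of B cells or mast cells was at 0 in every library, and the part of any of these cells in the levels above was not tested.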

How the data were processed

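RNA-seq data of 6 libraries (3 WT, 3 FOXO3 KO) were used as the authors deposited them, in a table of estimated counts per gene symbol, of which 81.4% lay within 0.01 of a whole number. The submitters' processing notes name STAR 2.6.1d, kallisto 0.46.0, DESeq2 and mm10, without their role or order. Reads were paired, of 76 bases. Samples were grouped by their labels. Counts were rounded and tested over all genes in edgeR 4.0.16 (R 4.3.3) with filterByExpr, TMM factors, the quasi-likelihood test and Benjamini-Hochberg adjustment at an FDR of 0.05, after tests on simulated data. Alternatives used DESeq2 1.42.0, limma 3.58.1 (voom), edgeR's likelihood ratio test, other factors, no filter, a filter of 10 counts in 3 libraries, a replicate block, an Xist covariate at 1 CPM, and libraries left out. Fits in DESeq2 without single libraries and counts within Xist classes were chosen after seeing the data. Members and lists were chosen with earlier results of these data known. Full statistics were given for a set list of T cell and NK cell genes and for the member of each list with the smallest p, and other lists by count and their smallest p (for the other T cell genes it is not reported here), while the gamma constant regions, Il18rap and Serpinb9b were named after their values were seen. Transcripts and coordinates came from GENCODE M21 (GRCm38) and promoters from RefSeq (GRCm38.p6). Intervals cover counting error only. Each SE given for edgeR is the absolute log2 fold change divided by the square root of the F statistic of the quasi-likelihood test. The human and colon data of the study were not analysed here.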

Additional observations from a re-analysis of the deposited data

How the results depend on the processing

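The count of members past an FDR of 0.05 was 0 in every fit named in the methods, each over all 42 members, the fits without a filter and with the stricter one included. With single libraries left out in edgeR, the T cell median ranged from -1.36 to 0.18 and the NK cell median from -0.05 to 0.36, and the log2 ratio of the group means of the sums over all 29 T cell genes, Il7r included, and all 13 NK cell genes from -0.28 to -0.10 (T) and from -0.01 to 0.31 (NK). The T cell median was above 0 only without WT 3 (0.18 in edgeR, 0.17 in DESeq2, 0.25 when the library labelled FOXO3 KO 2 was left out as well). In those fits FOXO3 KO 3 was the only library of high Xist. Among the genes given full statistics, fold changes that changed sign ranged from -1.67 to 0.11 (Trac), -1.57 to 0.18 (Trbc2), -1.54 to 0.63 (Cd3e), -1.36 to 0.07 (Cd3g), -1.48 to 0.45 (Cd4), -1.88 to 0.25 (Cd5), -0.94 to 0.33 (Thy1), -0.35 to 0.36 (Il7r), -1.65 to 0.42 (Tcf7), -0.89 to 0.55 (Gata3), -0.33 to 0.50 (Ncr1), -0.04 to 0.55 (Klrb1c), -0.70 to 0.67 (Gzmb), -0.06 to 0.54 (Prf1) and -0.31 to 0.07 (Nkg7). In DESeq2 without WT 3 the values were 0.10 (Trac), 0.17 (Trbc2), 0.62 (Cd3e), 0.06 (Cd3g), 0.43 (Cd4), 0.23 (Cd5), 0.32 (Thy1), 0.40 (Tcf7), 0.53 (Gata3), -0.05 (Klrb1c, Gzmb and Prf1) and 0.05 (Nkg7). In DESeq2 without the library labelled FOXO3 KO 2 they were -0.71 (Gzmb) and -0.06 (Prf1). With both libraries left out in edgeR they were 0.25 (Trac and Trbc2), 0.85 (Cd3e), 0.19 (Cd3g), 0.56 (Cd4), 0.44 (Cd5), 0.40 (Thy1), 0.66 (Tcf7), 0.86 (Gata3), -1.05 (Gzmb) and -0.26 (Prf1). Il7r was 0.11 with the Xist covariate and in limma-voom, and Ncr1 0.08 and 0.15. Without a filter Il7r was 0.00. The cause of these changes of sign was not tested. The log2 fold change of Foxo3 ranged from -4.46 to -0.87 with single libraries left out, and passed the FDR at -4.46 in DESeq2 without the library labelled FOXO3 KO 2 and at -4.64 (adjusted p = 0.00182) in edgeR without both.

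No pairing by replicate number was assumed. Deviations from the group means correlated at 0.256, -0.0722 and 0.524 for numbers 1, 2 and 3, and at -0.518 to 0.552 between libraries of unlike number. The libraries numbered 3 were also those of high Xist, so these values do not decide whether the numbers pair the libraries. With the replicate block the count stayed 0, the T cell median was -0.63, the NK cell median 0.15, and Il7r and Ncr1 were 0.12 each. Members at a few CPM rest on few counts, Foxp3 most of all.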
